A study of Mus musculus with 10 samples.

Results

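Fgf21, its co-receptor gene Klb and the 4 FGF receptor genes Fgfr1, Fgfr2, Fgfr3 and Fgfr4 were followed in mouse liver. They were taken from the deposited table by gene name, 6 of 51911 genes, and all 6 passed the filter on low counts that left 13619 genes for testing. RNA was sequenced in 10 liver samples of C57BL/6 mice kept on a high-fat diet for 8 weeks, 5 labelled wild type and 5 labelled Cpt1a L-/-, called knockout here. Cpt1a encodes carnitine palmitoyltransferase 1A, through which long-chain fatty acids enter mitochondria for oxidation, and the series title names hepatic CPT1A and FGF21. Both genotypes received the high-fat diet, and no group on another diet was analysed here. The sources used here state neither age, sex, the driver of the deletion nor the deleted exons. They also do not state that each sample came from its own animal, so a p-value here speaks to the spread between samples only.

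FGF21 is a hormone of the FGF family that the liver releases into the blood. It signals where a cell carries both β-klotho, the product of Klb, and an FGF receptor, mostly FGFR1 in adipose tissue and brain. Hepatocytes carry β-klotho with FGFR4, the pair through which the gut hormone FGF15 restrains bile acid synthesis in mice.

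Depth was alike, with 20599078 to 26955922 total counts per wild type library and 23990970 to 25200273 per knockout library. Cpt1a was at 430.1 ± 85.8 CPM (counts scaled to a common total with TMM factors, SD, n = 5) in wild type and at 80.04 ± 9.19 CPM in knockout libraries, with no overlap. Hepatocyte markers dominated every library, Alb with at least 49910 CPM. The first principal component, with 37.0% of the variance, set wild type replicates 1 and 2 (0.46 and 0.50) apart from the other 3 wild type libraries (-0.28, -0.36 and -0.33). It divided the knockout libraries too, with replicates 1 to 5 at -0.21, 0.26, 0.07, -0.27 and 0.17.

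The 250 bases upstream of the annotated Fgf21 start are shown because 3 regulators of Fgf21 are followed through their target genes further on. The sequence is from RefSeq for GRCm38.p6, chr7:45615491-45615740, minus strand, with matches to the searched motifs in capitals.
Fgf21 promoter: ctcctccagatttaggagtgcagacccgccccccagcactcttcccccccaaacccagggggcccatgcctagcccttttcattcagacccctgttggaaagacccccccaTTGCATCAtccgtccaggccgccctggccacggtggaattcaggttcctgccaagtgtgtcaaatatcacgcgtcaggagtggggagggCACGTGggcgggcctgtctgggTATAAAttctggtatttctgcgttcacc
The capitals mark, in order, TTGCATCA, an element bound by ATF4, at -139 to -132, the E-box CACGTG at -50 to -45, and TATAAA at -28 to -23. Both strands were searched, and of 32851 upstream windows of the same length 0.791%, 6.02% and 12.4% held these letters. The strict direct-repeat PPAR response element, held by 0.0335% of windows, and the cAMP element TGACGTCA, held by 1.55%, were not in the Fgf21 window. None of the 5 motifs was in the windows of Klb, Fgfr2, Fgfr3, for which 2 were listed, or Fgfr4, and Fgfr1 was not looked at.

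Fgf21 (ENSMUSG00000030827, GRCm38 chr7:45613886-45615490, minus strand) was about 2-fold higher in knockout than in wild type samples, but the difference did not pass the test across all genes. In wild type replicates 1 to 5 it was at 2.00, 1.46, 1.29, 4.32 and 1.98 CPM, from 45, 26, 31, 121 and 56 counts. In knockout replicates 1 to 5 it was at 4.31, 5.30, 3.32, 6.48 and 3.14 CPM, from 104, 116, 92, 173 and 81 counts. Wild type replicate 4 lay among the knockout libraries and the other 4 wild type libraries lay below all of them, so the genotypes overlapped through 1 library. All 5 knockout libraries exceeded the wild type median, and 2 exceeded wild type replicate 4.

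The Fgf21 means were 2.21 ± 1.22 and 4.51 ± 1.40 CPM (SD, n = 5 each). The Fgf21 log2 fold change was 1.01 ± 0.33 (SE, 95% interval 0.31 to 1.72, edgeR adjusted p = 0.594). A two-sided exact permutation test of Fgf21 alone over the 10 libraries gave p = 0.032, which is not adjusted for other genes. Without both wild type replicates 1 and 2 the Fgf21 log2 fold change was 0.83 (edgeR adjusted p = 0.358), an alternative chosen after seeing the data. Of all tested genes 1.17% had a log2 fold change at least as far from 0, and Fgf21 ranked 193 by p. In the authors' deposited table its log2 fold change was 0.515 with a p-value of 0.00238, rank 158 among the tested genes. That table does not say whether the p-value was adjusted, and DESeq2 run here gave Fgf21 an adjusted p of 0.216. The DESeq2 log2 fold change was 1.02 and the deposited mean TPM was 3.26 and 6.80, so 0.515 is not the plain log2 ratio of the means. In bulk liver, a change in the number of cells that express a gene and a change in RNA per cell cannot be told apart.

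**Figure D1:**
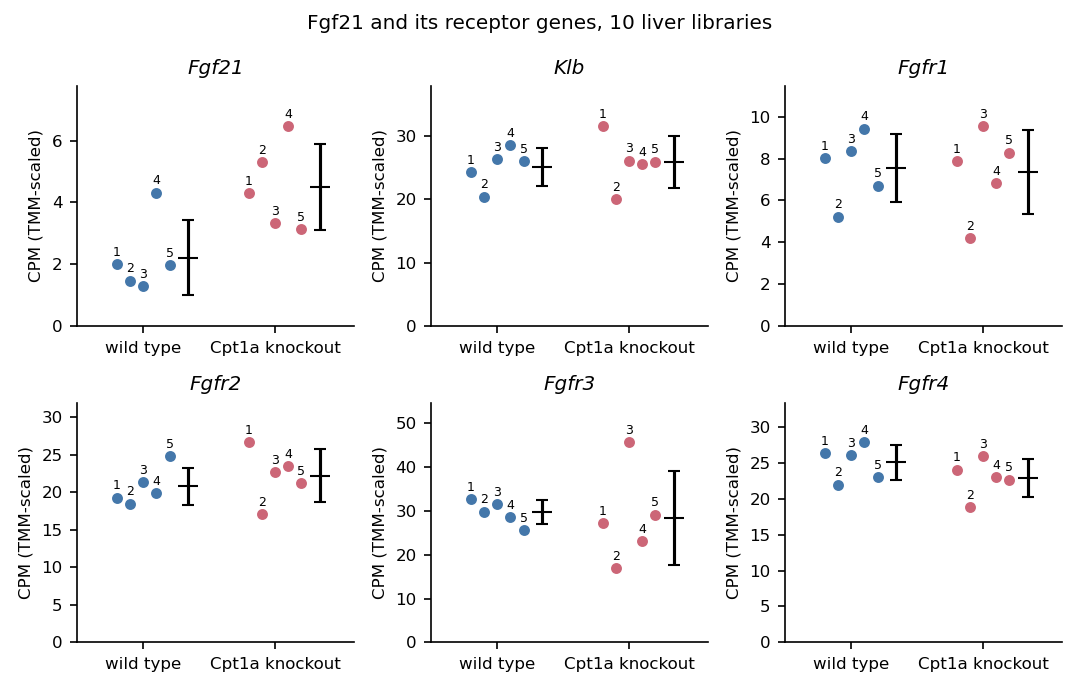
TMM-scaled CPM of the 6 genes in each library (points, numbered by replicate) with the mean and SD of each genotype (bars, n = 5). Fgf21 in wild type replicate 4, at 4.32 CPM, lies among the knockout libraries, and the genotypes overlap for all 6 genes.

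Wild type replicate 4 also had the largest summed level of the cholangiocyte list, 124.7 CPM, and of the adipocyte list, 107.2 CPM. Of that cholangiocyte sum, 111.9 CPM was Spp1. The same library was also the highest of the 10 for Epcam, Sox9, Krt19, Krt7 and Muc1, but not for Cftr. These 5 were at 3.82, 4.89, 2.11, 0.75 and 1.18 CPM in it. The cholangiocyte sum ran from 39.8 to 124.7 CPM in wild type and from 21.8 to 50.8 CPM in knockout libraries, and the adipocyte sum from 20.5 to 107.2 and from 30.3 to 70.8 CPM. The adipocyte sum came from Cfd and Plin4. The defining genes Adipoq, Plin1, Lep and Retn were at 0 CPM in wild type replicate 4. They reached at most 0.222 CPM in any wild type library. Of the 10 libraries, wild type replicate 4 had the lowest Kupffer cell and macrophage sum, 369.8 CPM, and exocrine pancreas sum, 14.9 CPM. Without that library the Fgf21 log2 fold change was 1.41 (edgeR adjusted p = 0.0871). The part of these marker levels in its Fgf21 value was not tested.

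Of the 6 genes, 0 passed an adjusted p of 0.05 in edgeR, where 0.132% of all tested genes did, 0.0808% as higher and 0.0514% as lower in the knockout. Only Fgf21 had an unadjusted p under 0.05, as did 4.82% of all tested genes. In the authors' deposited table Fgf21 alone of the 6 had a p-value under 0.05, as did 5.24% of the tested genes. None of the 6 had genotypes that did not overlap, against 1.05% of all tested genes. The 5 receptor genes each had an edgeR adjusted p of 1.0.

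Klb (ENSMUSG00000029195, chr5:65348314-65384007, plus strand) encodes β-klotho. It was at 24.3, 20.4, 26.3, 28.5 and 26.0 CPM in wild type replicates 1 to 5 and at 31.5, 20, 26.1, 25.5 and 25.9 CPM in knockout replicates 1 to 5. Replicate 2 was lowest in both genotypes, and the ranges covered each other almost fully. The log2 fold change was 0.04 ± 0.14 (SE), and its 95% interval of -0.25 to 0.33 leaves room for modest changes either way.

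Fgfr4 (ENSMUSG00000005320, chr13:55152640-55168759, plus strand) encodes the main FGF receptor of hepatocytes. It was at 26.4, 21.9, 26.1, 27.8 and 23.0 CPM in wild type and at 24.0, 18.8, 25.9, 23.0 and 22.7 CPM in knockout replicates 1 to 5. Every knockout library lay below the wild type median, within a range that overlapped. The log2 fold change was -0.13 ± 0.12 (SE, 95% interval -0.38 to 0.12).

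Fgfr1 (ENSMUSG00000031565, chr8:25513654-25575718, plus strand), the partner of β-klotho in adipose tissue, was the receptor gene with the fewest counts. It was at 8.04, 5.23, 8.37, 9.43 and 6.71 CPM in wild type and at 7.87, 4.20, 9.56, 6.82 and 8.28 CPM in knockout replicates 1 to 5. Both genotypes spanned about the same range, again with replicate 2 lowest in each. The log2 fold change was -0.04 ± 0.22 (SE, 95% interval -0.51 to 0.43), and the antisense gene Gm16159 overlaps Fgfr1, so without stated strand their reads cannot be told apart.

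Fgfr2 (ENSMUSG00000030849, chr7:130162451-133123350, minus strand) encodes a receptor for paracrine FGFs. It was at 19.3, 18.5, 21.3, 19.9 and 24.8 CPM in wild type and at 26.6, 17.0, 22.7, 23.5 and 21.2 CPM in knockout replicates 1 to 5. In 4 of 5 knockout libraries it lay above the wild type median, and the lowest value of all was also a knockout. The log2 fold change was 0.10 ± 0.14 (SE, 95% interval -0.20 to 0.39).

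Fgfr3 (ENSMUSG00000054252, chr5:33721674-33737068, plus strand), another receptor tyrosine kinase of the family, had the widest spread among knockout libraries. It was at 32.7, 29.9, 31.6, 28.6 and 25.7 CPM in wild type and at 27.3, 16.9, 45.6, 23.1 and 29.2 CPM in knockout replicates 1 to 5. Knockout replicates 2 and 3 were the lowest and the highest of the 10 libraries. The log2 fold change was -0.06 ± 0.21 (SE, 95% interval -0.52 to 0.40), and G630022F23Rik overlaps Fgfr3 on the opposite strand. On the log2(TPM + 0.1) scale the signs of Fgfr1, Fgfr3 and Fgfr4 turned, to 0.15, 0.07 and 0.03.

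**Figure D2:**
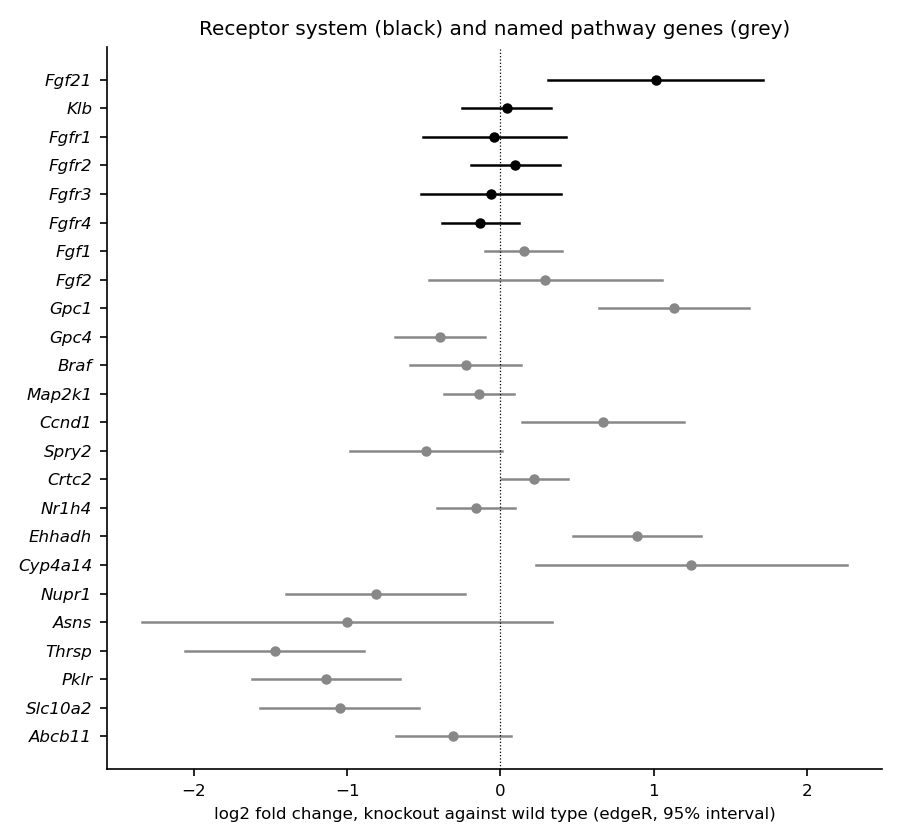
Log2 fold change, knockout against wild type, with 95% intervals from edgeR for the 6 genes (black) and the named genes of the pathway lists (grey). The interval of Fgf21 runs from 0.31 to 1.72, and those of the 5 receptor genes include 0.

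Levels of different genes were set side by side per length, as deposited TPM, the authors' length-scaled transcript level, and as CPM per kb of the deposited gene length. On both scales Fgfr1 was below the other 3 receptor genes and Klb in 10 of 10 libraries. The 2 scales disagreed on Fgfr2, which was above Fgfr3 and Fgfr4 in 10 of 10 libraries in TPM and below both in 10 of 10 in CPM per kb. Fgfr3 was above Fgfr4 in 9 of 10 libraries in TPM and in 3 of 10 in CPM per kb, and Klb was above Fgfr4 in 0 and in 4 of 10, so the order of these 3 depends on the scale.

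In TPM, Fgfr2 was at 25.7 ± 16.4 in wild type and 28.1 ± 9.87 in knockout libraries (SD, n = 5 each), while Fgfr3 was at 9.08 ± 2.07 and 10.3 ± 4.94, and Fgfr4 at 8.04 ± 1.82 and 8.27 ± 2.09. Klb was at 5.17 ± 1.84 and 5.63 ± 1.56 TPM, and Fgfr1 at 2.43 ± 0.88 and 2.75 ± 1.14 TPM. Fgf21 was at 3.26 ± 2.25 and 6.80 ± 2.27 TPM, above Fgfr1 in 9 of 10 libraries.

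The length that count and TPM jointly imply showed where the scales part. For Fgfr2 it ran from 485 to 2616 bases over the libraries, against a deposited length of 4429, and its largest value was 5.4 times its smallest. Of 8478 genes with at least 100 counts in every library 0.189% varied as much, and the median gene varied 1.11-fold. For Klb the implied length of 4994 to 6283 bases exceeded the deposited 3540 in every library, while Fgfr4 stayed at 3183 to 3574 against 3324. GENCODE M21 lists 27 Fgfr2 transcripts, of which Fgfr2-217 alone stretches the gene over 2.96 Mb, a span that overlaps 69 other genes. The cause of the differing lengths was not tested.

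**Figure D3:**
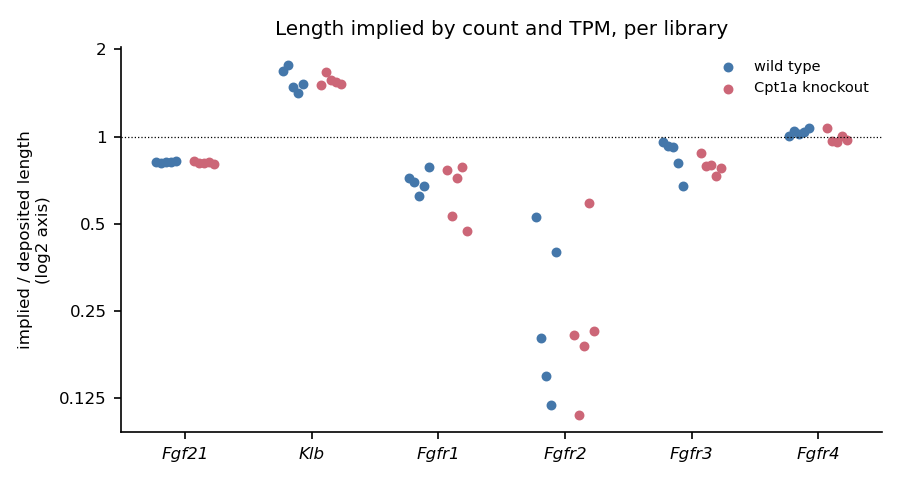
Gene length implied by count and TPM over the deposited length (log2 axis), 1 point per library, by genotype. Fgfr2 ranges from 0.109 to 0.591, Klb lies above 1 in every library at 1.41 to 1.77, and Fgfr4 stays between 0.958 and 1.08.

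The share of Fgfr4 in the summed TPM of the 4 receptor genes was 19.5 ± 6.31% in wild type and 17.5 ± 5.82% in knockout libraries (SD, n = 5 each, two-sided exact permutation p = 0.55). In CPM per kb it was 36.3 ± 1.68% and 34.9 ± 3.33% (exact permutation p = 0.39). The log2 ratio of Klb to Fgfr4 differed by 0.12 in TPM (exact permutation p = 0.48) and by 0.17 in CPM per kb (exact permutation p = 0.087). None of these 4 tests passed 0.05, and the libraries of the genotypes overlapped in each.

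Across libraries, 18 relations were examined on log2 CPM, among the 6 genes and between Fgf21 and 3 panels of target genes, with permutation p-values adjusted over the 18. Fgfr1 and Fgfr4 had the largest Pearson r of the 18 (r = 0.90, permutation p = 0.00024, adjusted 0.0043). Their rho was 0.76 (permutation p = 0.015, adjusted 0.14), r was 0.74 without wild type and knockout replicates 2, and the deviations from genotype means had r = 0.96. For Klb and Fgfr1 r was 0.80 (permutation p = 0.0082, adjusted 0.037) and fell to 0.18 without those 2 libraries, on which the relation rests. For Klb and Fgfr2 it was 0.79 (permutation p = 0.0061, adjusted 0.037) and 0.53 without them, and for Fgfr1 and Fgfr3 0.75 (permutation p = 0.012, adjusted 0.044) and 0.76. The rho of these last 3 pairs was 0.66, 0.67 and 0.66, each with an adjusted permutation p of 0.15. Fgf21 had r between -0.44 and 0.19 with the 5 receptor genes.

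Genes most like Fgf21 across the 10 libraries, of 11514 compared by Pearson r of log2 CPM, were Pctp (0.968), Cidec (0.957), Cgref1 (0.936), Rufy4 (0.925) and Limk1 (0.924). Pctp encodes a phosphatidylcholine transfer protein and Cidec a lipid droplet protein. Cidec was at 5.06, 6.98, 4.83, 48.1 and 9.40 CPM in wild type and at 32.1, 44.3, 34.7, 79.7 and 27.6 CPM in knockout replicates 1 to 5. Wild type replicate 4 again lay among the knockout libraries, but Cidec was picked for its likeness to Fgf21, so this adds no separate evidence. Most like Klb were Sgms2 (0.943), Slc6a6 (0.938) and Brd1 (0.936), and most like Fgfr4 were Ints5 (0.919), Smg8 (0.912) and Hgfac (0.907).

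PPARα, ATF4 and ChREBP are transcription factors known to act at Fgf21, in fatty acid use, amino acid and stress responses, and carbohydrate use. Over the PPARα panel of 13 tested genes the mean centred log2 CPM was -0.33, -0.47, -0.46, 0.29 and 0.11 in wild type and 0.33, 0.37, -0.43, 0.50 and 0.08 in knockout replicates 1 to 5. Libraries with a high panel mean tended to have high Fgf21, wild type replicate 4 among them. Knockout replicate 3 was an exception, with a panel mean of -0.43 and Fgf21 at 3.32 CPM. The relation had r = 0.84 (permutation p = 0.0048, adjusted 0.037) and rho = 0.87 (permutation p = 0.0023, adjusted 0.042), with r = 0.70 without wild type replicates 2 and 3. Deviations from the genotype means had r = 0.82.

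In the PPARα panel 11 of 13 genes had a positive log2 fold change, as did 6082 of all 13619 tested genes. The panel median was 0.14, against -0.02 over all tested genes. Of the 13 panel genes 0 passed in edgeR, 3 had an unadjusted p under 0.05, and DESeq2 called Ehhadh. Ehhadh, a peroxisomal β-oxidation enzyme, was at 200.9 ± 51.4 and 372.7 ± 73.7 CPM (log2 fold change 0.89 ± 0.19 (SE), edgeR adjusted p = 0.171). Cyp4a14, a fatty acid hydroxylase, was at 457.8 ± 379.8 and 1086 ± 327 CPM (1.25 ± 0.47, edgeR adjusted p = 0.844).

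The ATF4 panel gave 9 negative values of 12 (median -0.15), where 7537 of all 13619 tested genes were negative. In this panel 0 genes were called and 1 had an unadjusted p under 0.05. Nupr1, a stress-induced regulator, was at -0.81 ± 0.27 (SE, edgeR adjusted p = 0.633). Asns, asparagine synthetase, with 3 to 49 counts per library, had -1.0 ± 0.62 (SE, edgeR adjusted p = 1.0). It was at -0.49 without wild type replicate 2, at -0.33 without both wild type replicates 1 and 2, and at -0.10 in voom. Fgf21 and the ATF4 panel mean had r = -0.36 (permutation p = 0.31, adjusted 0.48) and rho = -0.26 (permutation p = 0.47, adjusted 0.81), with r = -0.43 without wild type replicate 4 and knockout replicate 2. Deviations from the genotype means had r = 0.29, so the sign turned within genotypes. The ChREBP panel gave 10 negative values of 12 (median -0.60), with 0 called by edgeR, 6 at an unadjusted p under 0.05, and Thrsp and Pklr called by DESeq2. Thrsp, a lipogenic regulator, was at 437.7 ± 133.4 and 157.7 ± 53.9 CPM (-1.47 ± 0.27, edgeR adjusted p = 0.0668), and Pklr, liver pyruvate kinase, at 244.6 ± 76.4 and 111.1 ± 26.6 CPM (-1.14 ± 0.22, edgeR adjusted p = 0.0944). The ChREBP panel mean was above 0 in every wild type library and below 0 in every knockout library, so no correlation with Fgf21 over both genotypes is given. Deviations from the genotype means had r = 0.33.

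**Figure D4:**
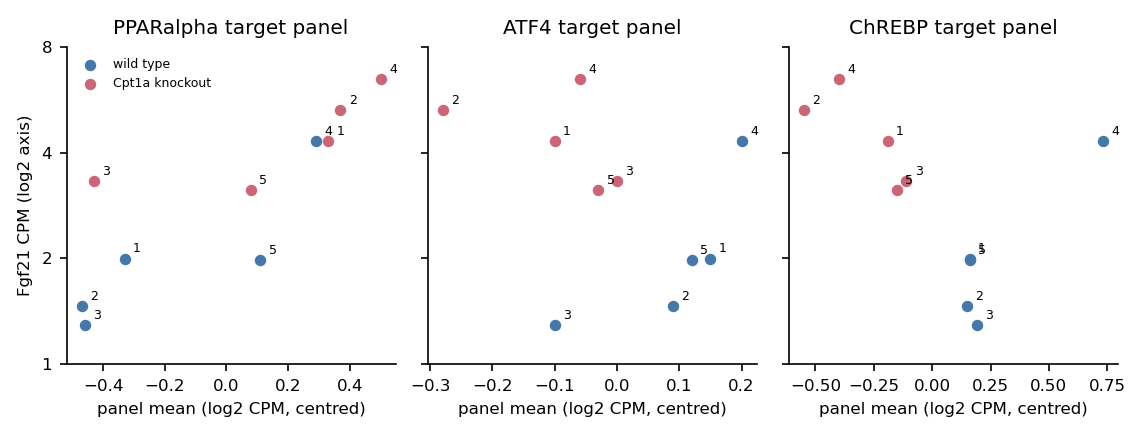
Fgf21 CPM (log2 axis) against the mean centred log2 CPM of 3 panels of target genes, 1 point per library, numbered by replicate. Fgf21 tends to be higher in libraries with a higher PPARα panel mean, with knockout replicate 3 an exception. The genotypes lie apart on the ChREBP panel, where wild type replicate 4 is at 0.73.

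The regulators themselves, 26 of 26 tested, gave 0 called, 1 at an unadjusted p under 0.05, and 11 positive and 15 negative values. Crtc2, a CREB coactivator, was at 22.5 ± 2.23 and 26.2 ± 0.72 CPM (0.22 ± 0.10, edgeR adjusted p = 1.0) with no overlap, and Nr1h4, the bile acid receptor FXR, had -0.16 ± 0.12. Ppara, chosen after its value was seen, had -0.03 ± 0.18.

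Of 21 other FGF ligand genes 3 were tested and 10 were at 0 in all libraries. Fgf1, a paracrine ligand of all FGF receptors, was at 105.2 ± 10.8 and 116.8 ± 13.95 CPM, and Fgf2 at 1.12 ± 0.35 and 1.37 ± 0.74 CPM. Of 15 other receptor and co-receptor genes 9 were tested, 0 called and 3 at an unadjusted p under 0.05. Gpc1, a heparan sulphate proteoglycan that binds FGFs, was at 24.3, 25.5, 31.5, 47.4 and 25.7 CPM in wild type and at 63.6, 52.2, 58.6, 104.3 and 59.7 CPM in knockout replicates 1 to 5, with no overlap. The Gpc1 difference was 1.13 ± 0.23 on the log2 scale (SE, edgeR adjusted p = 0.106). It passed in DESeq2 (adjusted p = 0.000815), without wild type replicate 4 (edgeR adjusted p = 0.0191) and with the replicate block (edgeR adjusted p = 0.0111). The block pairs libraries by number, which their deviations did not bear out for replicates 1, 3 and 5. Gpc4, a related glypican, had -0.40 ± 0.14 (edgeR adjusted p = 0.686).

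Downstream of the receptors, 24 of 24 adaptor and Ras-ERK genes were tested, with 0 called and 0 at an unadjusted p under 0.05, 12 with positive and 12 with negative values. The smallest p-values were those of the kinases Braf (-0.23 ± 0.17) and Map2k1 (-0.14 ± 0.11). Of 19 feedback inhibitors and immediate targets 18 were tested, with 0 called and 1 at an unadjusted p under 0.05. Ccnd1, cyclin D1, was at 22.7 ± 3.92 and 36.1 ± 13.3 CPM (0.67 ± 0.24, edgeR adjusted p = 0.797). Spry2, an inhibitor of receptor signalling, was at 0.98 ± 0.18 and 0.70 ± 0.07 CPM (-0.49 ± 0.23, edgeR adjusted p = 1.0), with no overlap. The Spry2 gap rests on few reads, with 17 to 36 counts per wild type and 16 to 20 per knockout library.

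Of 6 bile acid genes that FGFR4 and β-klotho are known to influence, 6 were tested, with 0 called by edgeR and 1, Slc10a2, at an unadjusted p under 0.05 and called by DESeq2. Slc10a2, a bile acid uptake transporter, was at 14.6 ± 5.92 and 7.07 ± 0.96 CPM (-1.05 ± 0.24, edgeR adjusted p = 0.203) with no overlap. The summed cholangiocyte markers lay in the same direction, at 67.7 CPM on average in wild type and 36.2 CPM in knockout libraries. Most of that sum was Spp1, at 59.8 and 30.6 CPM. Log2 fold changes of the 6 tested markers were -0.968 (Spp1), -0.621 (Sox9), -0.578 (Krt19), -0.447 (Epcam), -0.385 (Muc1) and 0.001 (Krt7). In wild type replicates 1 to 5 Slc10a2 was at 10.1, 9.34, 17.9, 23.3 and 12.3 CPM and the marker sum at 39.8, 48.0, 69.9, 124.7 and 55.9 CPM, both highest in replicate 4. Of the 7 listed markers 6 were tested and none had an adjusted p under 0.05 in edgeR, with Sox9 (unadjusted p = 0.0068) and Spp1 (unadjusted p = 0.017), both named after their values were seen, under 0.05 before adjustment. The part of these markers in the Slc10a2 difference was not tested. Abcb11, the bile salt export pump, had -0.31 ± 0.17. Cyp7a1, the rate-limiting enzyme of bile acid synthesis, chosen after its value was seen, was at 31.4 ± 12.5 and 30.5 ± 14.8 CPM (-0.04 ± 0.35, edgeR adjusted p = 1.0).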

How the data were processed

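The submitters' processing notes name fastp, HISAT, RSEM and the build GRCm38.p5; tool versions, settings and strand were not stated. For each gene and library the authors deposited an expected (estimated) count and TPM, besides a gene length and their own log2 fold change and p-value. Wild type columns carry another abbreviation (CON) and were matched to the labels by number. Expected counts were rounded, 7.68% of those deposited being fractional.

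Genes were filtered with filterByExpr, scaled by TMM and tested for genotype with edgeR 4.0.16 (quasi-likelihood, robust, R 4.3.3), with Benjamini-Hochberg adjustment over 13619 genes and a threshold of 0.05. A count of 3 corresponds to 0.106 to 0.169 TMM-scaled CPM, for counting error only. Single values were tested by exact permutation over libraries and correlations with 100000 permutations (SciPy 1.17.1). Panel means and likeness used log2 CPM with a prior count of 0.5. The fit was tested on simulated data. Coordinates are from GENCODE M21 (GRCm38). Alternatives were other scalings and filters, DESeq2 1.42.0, limma 3.58.1 (voom, and log2 TPM with pseudocounts of 0.1 and 1), a replicate block, and each library left out.

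The members and lists were chosen with earlier results of these data known. The genes named were the 6 members, Cpt1a, called genes and up to 2 genes of smallest p in each list, and the genes most like Fgf21 (5), Klb (3) and Fgfr4 (3) whose mean log2 CPM was 0 or more, leaving out genes named Gm or Rik. Deviations of same-numbered libraries correlated at -0.46, 0.45, 0.00, 0.47 and -0.21. Pairing by number did not hold across all 5 replicates, and the main fit did not pair the samples.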

Additional observations from a re-analysis of the deposited data

Results flagged for a closer look

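Among 28 groups of 5 libraries examined for a single distant library, 3 were flagged, where chance flags about 1 in 20, or 1.4. Fgf21 in wild type replicate 4 was at 4.32 CPM, with the nearest wild type library at 2.00 CPM, a gap of 0.766 of the group's range. Fgf21 in knockout replicate 4 was at 10.7 TPM, with the nearest at 6.55 TPM. Klb in knockout replicate 2 was at 2.94 TPM, with the nearest at 5.89 TPM.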

How the results depend on the processing

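Over 21 alternatives the Fgf21 log2 fold change stayed positive, from 0.83 to 1.41, with adjusted p from 0.0871 (without wild type replicate 4) to 0.991, and 0 of the 6 genes passed in any of them. The replicate block gave 1.08 (adjusted p = 0.235), moved genes called from 18 to 26 and called 1 pathway list gene, Gpc1; both libraries correlated best with their own number for replicates 2 and 4 only. Genes called were 101 in DESeq2, 6 to 21 with 1 library left out (9 without wild type replicate 2, 6 without 3, and 8, 6 and 6 without knockout replicates 2, 3 and 5) and 10 without both wild type replicates 1 and 2, an alternative chosen after seeing the data. Pathway list genes called were 5 in DESeq2 (Ehhadh, Gpc1, Pklr, Slc10a2, Thrsp), 1 in voom (Pklr), 0 to 1 with 1 library left out (Gpc1 without wild type replicate 4, Thrsp without 5) and 1 without both wild type replicates 1 and 2 (Slc10a2). Receptor genes near 0 changed sign. Klb ran from -0.045 to 0.119, Fgfr1 from -0.157 to 0.103 and Fgfr3 from -0.302 to 0.076 with 1 library left out. Klb was -0.056 without both wild type replicates 1 and 2. The ligand gene Fgf2 also changed sign, running from -0.083 to 0.455 with 1 library left out. On log2(TPM + 0.1) and log2(TPM + 1), Fgfr1 was 0.154 and 0.117, Fgfr3 0.073 and 0.076, and Fgfr4 0.031 and 0.029; Fgfr3 was 0.002 in voom. The Fgfr4 share difference ran from -4.52 to 0.558 percentage points with 1 library left out and was 0.772 without both wild type replicates 1 and 2, where the log2 Klb to Fgfr4 ratio was -0.0647. The cause of these changes was not tested. Depth limits Fgf21 most, with a counting error of 7.6% to 19.6% per library.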
